A study of Mus musculus with 4 samples.

Results

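The regulators described here are 10 mouse genes of the formative and primed stages of pluripotency: Fgf5, Otx2, Pou3f1, Foxd3, Zic2, Zic5, Sall2, Lef1, Tcf15 and Grhl2. They were chosen by name, and every row carrying one of these names was taken from the deposited gene table (20 of 55200 rows, a promoter and a body for each gene) and from the deposited CpG island table (70 of 80045 rows). The gene table lists 28777 genes in all. The cells were CGR8 mouse embryonic stem cells (mESC), grown in medium with serum and LIF, the cytokine that keeps such cells undifferentiated. The control group had been stably transfected with the empty ppy-cagg-ires-puro vector and the netrin-1 group with the same backbone carrying a netrin-1 transgene, so both groups carry a vector with the puromycin marker. The CAG promoter of this backbone is active in most cell types. Each group had 2 libraries, and the labels do not say whether the 2 came from separate clones, transfections or cultures, so the spread between them may be technical.

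Naive embryonic stem cells first pass through a formative state, in which they become competent to form the germ layers, and then reach the primed state of the late epiblast. In this transition naive genes are switched off, genes such as Fgf5 and Otx2 are switched on, and the genome gains DNA methylation. CpG islands, dense clusters of CpG dinucleotides at many promoters, mostly stay unmethylated, while the shores and shelves beside them and the gene bodies can carry methylation. The assay was RRBS (reduced representation bisulfite sequencing), which reads cytosines near sites cut by the enzyme MspI. No RNA was measured here, so nothing is known of the expression of these genes.

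A methylation level is the percent of cytosine calls in a feature that were methylated. The 4 libraries held 28004487 and 37394424 calls (control replicates 1 and 2) and 32770000 and 44642064 calls (netrin-1 replicates 1 and 2) in the table of 100 kb windows. Promoters of the embryonic stem cell markers Pou5f1, Sox2, Nanog, Zfp42, Esrrb, Tdgf1 and Utf1 had a median group mean of 1.10% in control and 1.17% in netrin-1 cells over the 6 that were measured. The corresponding medians were 10.6% and 15.9% over 6 fibroblast marker promoters, 4 of which had a lower mean in netrin-1 cells, and 1.94% and 1.88% over 6 primitive endoderm marker promoters. Averages over the same promoters were 5.80% and 6.19% for stem cell, 24.1% and 16.5% for fibroblast and 7.97% and 12.2% for endoderm markers. The fewest calls in a library were 40, 2 and 8 in that order, so these values are rough. A methylation level does not show which cells are present, and the part of cell mixture in the results was not tested. Coordinates are on GRCm38 (mm10).

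RRBS sees a promoter only where MspI cuts near it, at CCGG. The promoter in the deposited table spans the start by 500 bp each way. Of the 10 promoters 8 had calls in all 4 libraries, and those of Otx2 and Sall2 had no call in any. The 250 bases upstream of the start are shown for 2 promoters that were measured and for these 2 that were not, from RefSeq (GRCm38.p6), 5′ to 3′ on the strand of the gene, with each CCGG in capitals.
Fgf5: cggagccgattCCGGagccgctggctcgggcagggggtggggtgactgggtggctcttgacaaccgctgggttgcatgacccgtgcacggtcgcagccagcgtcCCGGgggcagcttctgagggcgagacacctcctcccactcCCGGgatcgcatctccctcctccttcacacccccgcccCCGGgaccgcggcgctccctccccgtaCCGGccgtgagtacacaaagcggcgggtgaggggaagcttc
Zic5: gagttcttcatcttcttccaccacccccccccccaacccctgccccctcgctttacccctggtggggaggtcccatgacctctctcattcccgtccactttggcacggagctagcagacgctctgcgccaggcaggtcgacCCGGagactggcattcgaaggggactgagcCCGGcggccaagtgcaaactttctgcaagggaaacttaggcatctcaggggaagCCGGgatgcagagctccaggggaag
Otx2: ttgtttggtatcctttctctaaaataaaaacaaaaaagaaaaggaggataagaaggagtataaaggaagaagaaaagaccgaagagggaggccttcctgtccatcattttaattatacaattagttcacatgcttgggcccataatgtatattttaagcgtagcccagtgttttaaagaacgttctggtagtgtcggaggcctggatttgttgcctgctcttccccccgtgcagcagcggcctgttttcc
Sall2: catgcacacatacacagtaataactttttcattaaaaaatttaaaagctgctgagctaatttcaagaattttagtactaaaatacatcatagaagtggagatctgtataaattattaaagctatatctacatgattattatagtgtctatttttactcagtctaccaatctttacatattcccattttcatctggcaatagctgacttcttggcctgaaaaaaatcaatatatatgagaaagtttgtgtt
These lie at chr5:98253934-98254183 (plus strand), chr14:122465659-122465908 (minus strand), chr14:48667645-48667894 (minus strand) and chr14:52328671-52328920 (minus strand). The RefSeq starts used for Fgf5 and Otx2 are those of the deposited table, and the ones for Zic5 and Sall2 are 19 and 92 bases from it. The Fgf5 stretch holds 5 CCGG sites and 24 CpG dinucleotides and the Zic5 stretch 3 and 11. The Otx2 stretch holds 0 CCGG and 6 CpG, and the Sall2 stretch 0 of each. The Foxd3 and Lef1 stretches hold 1 CCGG each, with 21 and 14 CpG. CCGG reads the same on both strands, and 47.1% of 32851 RefSeq promoter stretches of this length hold it. RefSeq stretches were matched for 6 of the 10 genes. Only the 250 bases upstream were searched, so CCGG sites in the rest of each promoter, including all bases downstream of the start, were not counted.

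The 8 measured promoters all have a CpG island, per the deposited table, and all were nearly unmethylated in both groups. Each had a higher mean level in the netrin-1 cells, but none was called. Their average was 0.764% ± 0.137 in the controls and 1.54% ± 0.0641 with netrin-1 (SD over 2 libraries), or 0.773 percentage points more. Single promoters differed by 0.171 points at Zic2 to 2.43 points at Lef1. The netrin-1 libraries disagreed at Pou3f1, Lef1 and Tcf15, as given below, so the small SD of the average does not show agreement at single promoters. Over all 11928 measured promoters with a CpG island the averages were 1.76% ± 0.0638 and 1.58% ± 0.0444, and 44.7% had a higher and 54.1% a lower mean in netrin-1 cells. The median difference was 0.479 points for the 8 promoters and -0.0683 points for all promoters with a CpG island. The libraries of the groups did not overlap at 2 of the 8, both higher in netrin-1 cells, against 14.4% of all promoters with a CpG island, and 0 were apart with lower netrin-1 values, against 18.7%. The count of promoters with a higher mean was 8 with calls pooled in each group and 6 to 8 when 1 library at a time was left out, being 6 without netrin-1 replicate 1. With calls also pooled over the 8 promoters the difference was 0.412 points. The 6 islands at transcription starts, which overlap promoters of this set, were less uniform, with 4 higher and 2 lower means (Zic2 and Zic5). Their average was 1.01% in the controls and 1.16% with netrin-1, or 0.150 points more. Groups were apart at 1 of these islands in each direction. Of all 10201 measured start islands 4646 had a higher and 5396 a lower mean, with groups apart at 1467 and 1793.

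**Figure D1:**
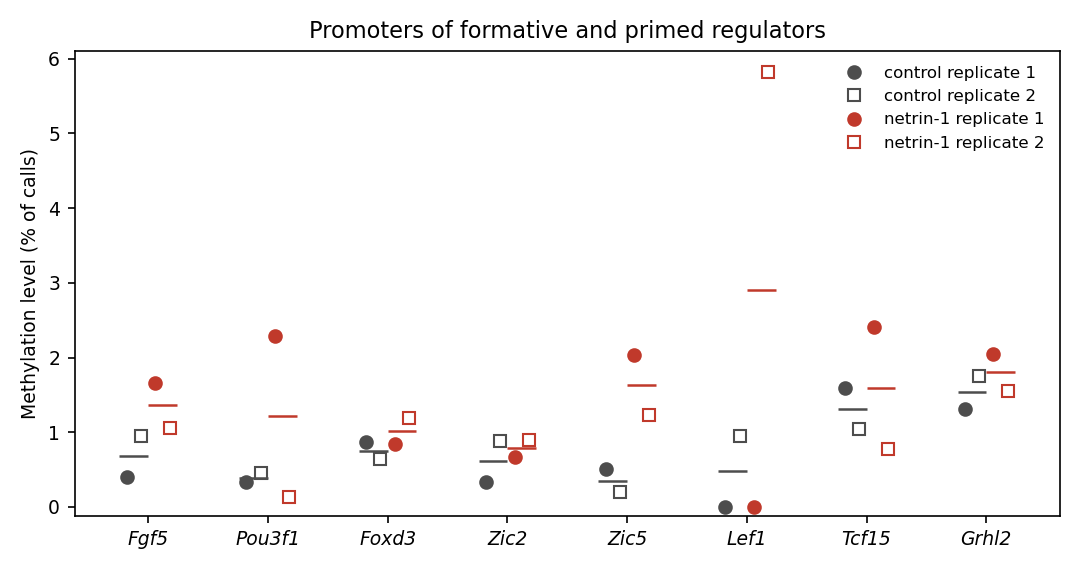
Methylation level (percent of calls) of the 8 measured promoters in each library; short lines are group means over 2 libraries. The levels lie under 3% except for Lef1 in netrin-1 replicate 2 (5.81%), and the groups are apart only at Fgf5 and Zic5.

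Fgf5 encodes a secreted fibroblast growth factor and is a widely used marker of the primed epiblast. Its promoter (chromosome 5, 98253684 to 98254684) stood at 0.40% and 0.952% in control replicates 1 and 2 and at 1.66% and 1.06% in netrin-1 replicates 1 and 2, on 750 to 1600 calls. Both netrin-1 libraries were above both controls, by a narrow margin. The Zic5 promoter (chromosome 14, 122465177 to 122466177) stood at 0.504% and 0.198% in the controls and at 2.03% and 1.23% in the netrin-1 libraries, on 397 to 976 calls. Zic5 and its neighbour Zic2 are zinc finger transcription factor genes that face away from each other, with starts 9758 bp apart. These levels rest on few methylated calls, 3 to 17 per library at Fgf5 and 1 to 12 at Zic5.

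The other 6 promoters had overlapping groups. Pou3f1, which encodes the POU factor Oct6, stood at 0.33% and 0.458% in the controls and at 2.29% and 0.137% in netrin-1 cells, the highest and the lowest value both being netrin-1 libraries. Lef1, a transcription factor that works with beta-catenin, stood at 0% and 0.952% in the controls and at 0% and 5.81% in netrin-1 cells. Only netrin-1 replicate 2 was high at Lef1, with 20 methylated of 344 calls on 48 covered positions, against 23 to 35 positions in the other libraries. The levels of 0% were 0 of 132 and 0 of 134 calls, which allow up to 2.27% and 2.24%. Tcf15, a helix-loop-helix factor, stood at 1.59% and 1.04% in the controls and at 2.40% and 0.773% in netrin-1 cells, and here too the netrin-1 libraries lay outside the controls on both sides. Foxd3, a forkhead factor, stood at 0.865% and 0.639% against 0.836% and 1.19%, and Zic2 at 0.34% and 0.886% against 0.671% and 0.897%. Grhl2, a grainyhead-like factor of epithelial gene enhancers, stood at 1.31% and 1.76% in the controls and at 2.04% and 1.56% in netrin-1 cells. For the 8 promoters the widest 95% Wilson interval of a single library spanned from 0.840 points at Foxd3 to 5.03 points at Lef1, so several of these differences were within counting error.

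Each feature was tested through its methylated and total counts, in a quasi-binomial model moderated with limma, with Benjamini-Hochberg adjustment over every tested feature of the same table and a threshold of 0.05. A feature needed at least 10 calls in each library and enough intermediate calls to inform on its spread, a total over the 4 libraries of calls × level × (1 - level) of at least 100. No promoter of the 8 reached that minimum. With no such minimum all 8 could be tested and 0 were called, against 0.216% of all 34657 gene features then tested, 0 of the 8 having an unadjusted p under 0.05. The lowest limma-moderated adjusted p among them was 0.540, at Lef1.

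Gene bodies differed widely among the regulators. In control cells the body of Lef1 had the highest level (35.0% ± 1.76, SD, n = 2), followed by Fgf5 (28.9% ± 2.84), Grhl2 (14.3% ± 0.468), Sall2 (12.3% ± 2.34), Zic2 (11.4% ± 0.598), Otx2 (3.08% ± 0.0719), Pou3f1 (2.37% ± 0.42), Foxd3 (1.54% ± 0.451) and Zic5 (1.30% ± 0.177). Libraries of neighbours in this order overlapped for Sall2 and Zic2 and for Foxd3 and Zic5. The Tcf15 body held 0 methylated of 43 control and 23 netrin-1 calls, which allows up to 6.98% and 13.0%. Most bodies overlap islands, shores or shelves of the same gene and share calls with them.

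Of the 10 bodies 7 had a lower mean in netrin-1 cells, 2 a higher one and Tcf15 none, while 69.8% of all 19231 measured bodies had a lower and 29.3% a higher mean. In 5 of them the groups did not overlap, all lower in netrin-1 cells, against 33.3% of all bodies, and 0 were apart in the other direction, against 7.61%. The average over the 10 bodies was 11.0% ± 0.0915 in the controls and 8.85% ± 0.479 with netrin-1 (SD, n = 2), which is -2.17 points, and the median difference was -1.81 points against -1.73 points over all bodies. With calls pooled over the bodies the difference was -3.43 points. Of these bodies 8 were tested and 0 were called, 2 of them having an unadjusted p under 0.05, against 12.8% of all tested gene features. In the gene table as a whole 1 of 17209 features was called, or 0.00581%.

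The Lef1 body (chromosome 3, 131110971 to 131224356) stood at 33.8% and 36.3% in the controls and at 30.1% and 29.2% in netrin-1 cells, on 9094 to 11742 calls, with a limma-moderated adjusted p of 0.234. The Fgf5 body (98254684 to 98277030) stood at 26.9% and 30.9% against 22.2% and 24%, with an adjusted p of 0.485. The Zic2 body (122475935 to 122479852) stood at 11.8% and 11.0% against 7.55% and 6.0%, with an adjusted p of 0.211. At each of these 3 genes both netrin-1 libraries lay below both controls, with differences of -5.38, -5.82 and -4.64 points. Over the alternatives that kept all 4 libraries, the limma-moderated adjusted p of the Zic2 body ran from 0.0735, with the replicate block, to 0.502, from limma on percentage points.

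The Grhl2 body (chromosome 15, 37233536 to 37363569) stood at 14.7% and 14.0% in the controls and at 12.7% and 11.2% in netrin-1 cells, with a limma-moderated adjusted p of 0.513. Its coverage also differed: scaled to the calls of each library, its promoter and body held fewer calls with netrin-1, at a ratio of 0.641 to the controls. Chromosome 15 as a whole had a ratio of 0.726 and the other 9 genes ratios from 0.910 at Otx2 to 1.21 at Tcf15. Chromosome 3, which carries Lef1, had a ratio of 1.19, and the other chromosomes with these genes had ratios from 0.972 to 1.02. In the 100 kb windows the ratio was 0.687 at Grhl2, 0.853 at Lef1 and 1.25 at Otx2. At the remaining genes it ran from 0.967 at Tcf15 to 1.12 at Zic2 and Zic5. The part of these coverage differences in the levels at Grhl2, Lef1 and Otx2 was not tested. The Otx2 body (48657679 to 48667144) stood at 3.13% and 3.03% against 2.17% and 1.21%, with an adjusted p of 0.552. Groups overlapped at Sall2, a spalt-like zinc finger factor, whose body (52311172 to 52328262) stood at 13.9% and 10.6% in the controls and at 12.2% and 7.80% in netrin-1 cells.

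The remaining bodies differed little, by 0.188 points at Pou3f1, 0.126 at Foxd3 and -0.169 at Zic5. Pou3f1 stood at 2.07% and 2.67% in the controls and at 2.56% and 2.56% in netrin-1 cells. Foxd3 stood at 1.85% and 1.22% against 1.57% and 1.75%, and Zic5 at 1.43% and 1.18% against 0.755% and 1.51%. In these 3 genes the values of the groups overlapped.

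**Figure D2:**
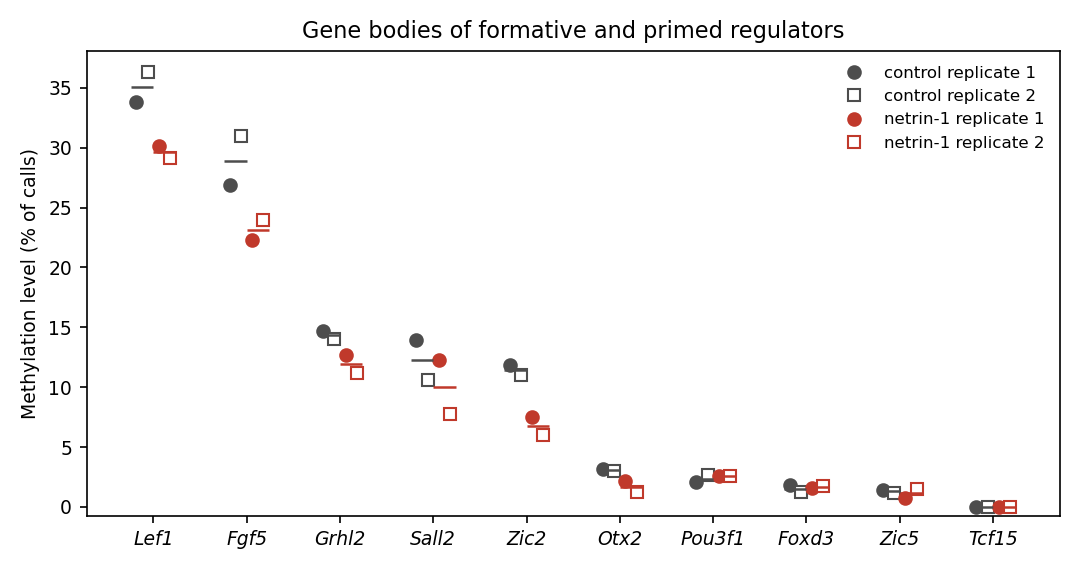
Methylation level (percent of calls) of the 10 gene bodies in each library, ordered by control mean; short lines are group means over 2 libraries. Both netrin-1 libraries lie below both controls at Lef1, Fgf5, Grhl2, Zic2 and Otx2, and no library exceeds 3.13% from Otx2 to Tcf15.

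The CpG island table lists 14 islands with 28 shores and 28 shelves for these genes, and none for Sall2. Calls were present in all 4 libraries at 43 of these 70 features. The islands at the transcription starts of Foxd3, Zic2, Zic5, Lef1, Tcf15 and Fgf5 measure 796 to 2291 bp, and the islands inside or away from genes are shorter, at 271 to 744 bp. At the 13 measured islands the average was 2.24% ± 0.224 in the controls and 1.91% ± 0.188 with netrin-1 (SD, n = 2), with 6 lower and 7 higher means. Among all 14557 measured islands 54.6% had a lower and 43.7% a higher mean. The groups did not overlap at 4 islands that were lower and 2 that were higher with netrin-1, against 19.9% and 13.7% of all islands. The average difference of -0.324 points became -0.166 when control replicate 2 was left out and -0.191 when netrin-1 replicate 2 was, and without control replicate 1 it was -0.482.

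Shores are the 2000 bp on either side of an island, and shelves the next 2000 bp. Of 14 measured shelves 11 had a lower and 3 a higher mean in netrin-1 cells, against 62.5% and 36.1% of all 10862 measured shelves. The netrin-1 libraries lay apart below the controls at 8 shelves and above them at 1, against 27.0% and 10.2% of all shelves. The average was 11.8% ± 1.78 in the controls and 8.25% ± 0.668 with netrin-1, and the median difference was -2.47 points against -1.21 points over all shelves. The average difference of -3.53 points was -2.28 without control replicate 1. Shores were mixed, with 8 of 16 lower and 7 higher and an average of 6.79% ± 0.765 against 5.63% ± 1.87, while 57.8% of all shores had a lower and 36.0% a higher mean. The median shore difference was -0.173 points, against -0.437 points over all shores. Differences at single shores ran from -22.9 to 12.0 points, with as few as 4 calls in a library, so the average leans on its extremes. Groups were apart at 3 shores lower and 4 higher with netrin-1, against 22.8% and 9.67% of all shores, and without netrin-1 replicate 2 the average shore difference changed sign, from -1.16 to 0.163 points. These features overlap one another at Otx2 and Lef1, so they are not separate measurements. Of 14 tested CpG island features 0 were called, while 0.186% of the 11815 tested in the whole table were, and 6 of the 14 had an unadjusted p under 0.05, all lower in netrin-1 cells, against 12.1% of all tested CpG island features. The 6 include the Otx2 shelves, which share calls. Limma fitted to percentage points or to log ratios of methylated to unmethylated calls also called 0 of the 14 and 0 of the 8 bodies.

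Otx2 encodes a homeodomain factor that acts with Oct4 at enhancers as cells leave the naive state. Its promoter was not covered, and the measured stretches upstream of it are 2 shelves that share calls. The shelf at chromosome 14, 48667573 to 48669572, stood at 21.2% and 12.6% in the controls and at 6.69% and 3.53% in netrin-1 cells, on 443 to 595 calls. The shelf at 48668725 to 48670724, which shares 848 bases with it, stood at 12.0% and 8.75% against 4.47% and 4.22%, on 1315 to 1834 calls. The shore at 48666725 to 48668724, which covers the rest of the first shelf, has 0 calls in every library, so all calls of the first shelf lie in the shared bases and are also calls of the second. In each shelf the netrin-1 libraries lay under both controls. The differences of -11.8 and -6.03 points had limma-moderated adjusted p of 0.0887 and 0.0678 and so did not pass, and these are not separate results. The number of covered positions was lowest in control replicate 1, at 9 and 18 against 20 to 26 and 30 to 35 in the other libraries, and the part of this in the difference was not tested. With no minimum on informative calls both were called, against 0.964% of all CpG island features then tested. Their adjusted p were then 0.0021 and 0.000823 by the same limma-moderated test. Without control replicate 1, adjusted p was 0.403 and 0.251 in that order. Over the alternatives it ran from 0.0021 to 0.486 and from 0.000823 to 0.482.

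At Zic2 both shelves had lower levels in netrin-1 cells, without a call, and the island and shores did not have groups apart. Its island (122474009 to 122476299) stood at 0.429% and 1.24% in the controls and at 0.391% and 0.806% in netrin-1 cells. The shelf at its 3′ end (122478300 to 122480299) stood at 18.7% and 16.5% against 11.2% and 9.80%, on 1693 to 2297 calls and 60 to 67 positions. The groups did not overlap in this shelf, and the limma-moderated adjusted p was 0.0678. With no minimum on informative calls it was 0.00213, a call, and over the alternatives it ran from there to 0.480. It shares 1553 bases with the Zic2 body. In control replicate 1 the shelf held 317 methylated calls and the body 333, so the body level largely repeats the shelf. The upstream shelf (122470009 to 122472008) stood at 40.7% and 30.0% in the controls and at 16.2% and 17.1% in netrin-1 cells, on 113 to 245 calls at 6 to 8 positions, with an adjusted p of 0.230. The upstream shore between that shelf and the island held 0 methylated of 186 control and 195 netrin-1 calls, which allows up to 1.61% and 1.54%. The downstream shore (122476300 to 122478299) stood at 2.66% and 1.31% against 0.889% and 1.40%, and its groups overlapped. With no minimum on informative calls, 0.964% of all CpG island features tested were called.

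**Figure D3:**
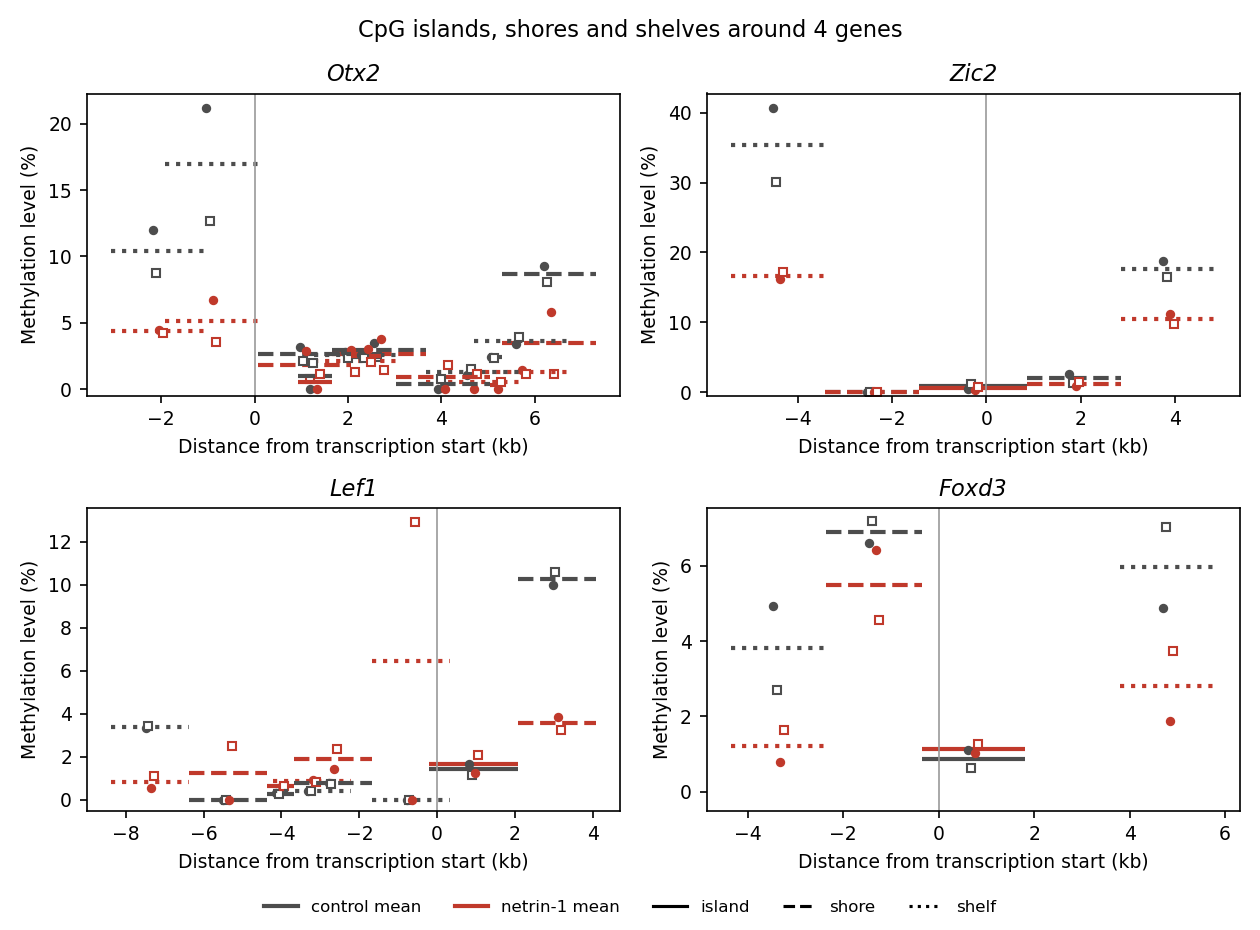
Methylation level (percent of calls) of CpG islands, shores and shelves of Otx2, Zic2, Lef1 and Foxd3 by distance from the transcription start (kb, negative upstream). Horizontal lines span each feature at the mean of 2 libraries, and circles and squares are replicates 1 and 2. At Otx2 and Zic2 the highest levels are in the upstream Otx2 shelves and outer Zic2 shelves, at 10.4% to 35.4% in the controls and at 4.34% to 16.7% in netrin-1 cells. At Foxd3 the upstream shore has the highest control mean, at 6.90%.

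At Lef1 the features around the start differed in direction, without a split by side of the start. The shore downstream of its island (131112544 to 131114543) stood at 9.98% and 10.6% in the controls and at 3.87% and 3.25% in netrin-1 cells, on 453 to 517 calls at 7 to 12 positions, with a limma-moderated adjusted p of 0.247. The island itself (131110257 to 131112543) stood at 1.68% and 1.14% against 1.25% and 2.07%. Upstream, an island between genes (131106088 to 131106791) stood at 0.303% and 0.251% in the controls and at 0.635% and 0.659% in netrin-1 cells, and its neighbouring shore (131106792 to 131108791) at 0.791% and 0.735% against 1.43% and 2.38%. Both netrin-1 libraries were above both controls in these 2 stretches, on 2 to 9 methylated calls per library. A shelf at 131106257 to 131108256, which overlaps them, stood at 0.429% and 0.394% against 0.901% and 0.816%. The farthest shelf (131102088 to 131104087) stood at 3.36% and 3.44% in the controls and at 0.538% and 1.12% in netrin-1 cells. Informative calls were too few for a test of that shelf, and its adjusted p was 0.322 with no minimum by the limma-moderated test. The shelf that reaches over the start (131108792 to 131110791) held 20 methylated of 155 calls in netrin-1 replicate 2 and 0 of 27, 21 and 39 calls in the others, and shares 821 bases with the promoter described above.

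At Foxd3, which has a role in the survival of the epiblast, the upstream shelf (99651946 to 99653945) stood at 4.93% and 2.71% in the controls and at 0.78% and 1.64% in netrin-1 cells, with a limma-moderated adjusted p of 0.285. The upstream shore (99653946 to 99655945) stood at 6.60% and 7.2% against 6.41% and 4.57%, and the island (99655946 to 99658098) at 1.12% and 0.633% against 1.04% and 1.26%. The downstream shelf (99660099 to 99662098) stood at 4.88% and 7.04% against 1.89% and 3.74%, on 53 to 187 calls. The netrin-1 libraries lay under both controls in the shelves and the shore, while the island levels overlapped.

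Inside Otx2 the 3 islands were nearly unmethylated. The one farthest from the start (48662337 to 48662607) stood at 2.42% and 2.36% in the controls and at 0% of 251 calls, which allows up to 1.2%, and 0.567% in netrin-1 cells. Its outer shore (48660337 to 48662336) stood at 9.29% and 8.09% against 5.81% and 1.16%, and a shelf over the same stretch (48660943 to 48662942) at 3.40% and 3.91% against 1.44% and 1.14%. The netrin-1 libraries were lower in all 3, which overlap or adjoin and were untested for want of informative calls. The other Otx2 features had overlapping groups, with group means from 0.386% to 2.95% in control.

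Features with groups that did not overlap were also found at other members, and none of those tested was called. The Zic5 shore, the Tcf15 shore, the Grhl2 island between genes and the Fgf5 island did not reach the minimums for the test. At Zic5 the island (122463430 to 122465286) stood at 1.03% and 0.866% in the controls and at 0.459% and 0.751% in netrin-1 cells, whereas the shore at 122461430 to 122463429 stood at 3.81% and 2.83% against 3.86% and 10.6%. The high value in that shore was netrin-1 replicate 2, and netrin-1 replicate 1 barely exceeded the controls. At Pou3f1 the shore at 124657909 to 124659908 stood at 1.57% and 1.38% against 1.90% and 1.65%, and its island (124659909 to 124660197) overlapped, at 3.47% and 6.47% against 5.92% and 5.99%. The Tcf15 upstream shore (152141214 to 152143213) stood at 21.4% and 14.3% in the controls and at 25% and 34.6% in netrin-1 cells, on only 8 to 52 calls. At Grhl2 an island in the gene (37279450 to 37279724) stood at 11.0% and 11.1% against 9.87% and 5.42%, with a limma-moderated adjusted p of 0.505. An island between genes listed under Grhl2 (37135478 to 37136021) stood at 1.12% and 0.794% against 0% of 661 calls, which allows up to 0.454%, and 0.673%. Both Grhl2 islands lie on chromosome 15, where the netrin-1 libraries had the lower coverage given above. The Fgf5 island holds the same calls as its promoter and repeats its values.

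**Figure D4:**
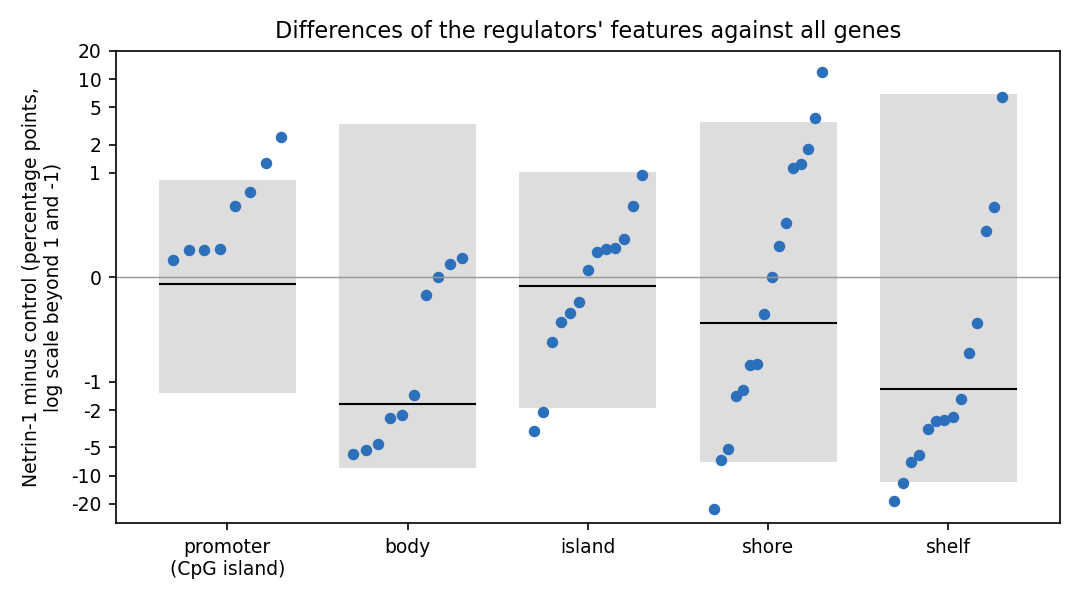
Difference in mean level (netrin-1 minus control, percentage points; log scale beyond 1 and -1) of each measured feature of the regulators (points) beside all measured features of the class (black line, median; grey box, 10th to 90th percentile). Points of promoters all lie above 0, and those of shelves are often below the class median of -1.21 points.

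Related genes, in lists chosen with earlier results of these data known, were examined for comparison. Of 25 further formative and epiblast genes, such as Dnmt3b, Sox3, Utf1, Fgf8 and the other Sall, Grhl and TCF family members, 22 had a measured promoter, with 14 higher, 7 lower and 1 equal means in netrin-1 cells and a median difference of 0.220 points. Of their 24 measured bodies 17 had a lower and 7 a higher mean, with a median difference of -0.729 points. None of their 22 tested gene features or 35 tested CpG island features was called by the limma-moderated test, where 2 and 3 had an unadjusted p under 0.05. Over all genes 12.8% and 12.1% of tested features had such a p, and 0.00581% and 0.186% were called. Of all 16527 measured promoters 9291 had a lower and 6969 a higher mean, and of all bodies 69.8% and 29.3%. These shares also apply to the lists below. Among tested features with groups apart, the greatest lower values were in shelves of Fgf8 (15.9% ± 5.50 against 6.53% ± 2.77, SD, n = 2) and Sox4 (26.8% ± 9.31 against 17.6% ± 0.0599). The greatest higher values among such features were in a shelf of Tcf7l2 (29.9% ± 3.96 against 45.4% ± 11.5) and the body of Tead2 (28.3% ± 2.82 against 34.2% ± 3.07).

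Among 13 epithelial genes, including the classical GRHL2 targets Cdh1 and Epcam, 6 of 9 measured promoters had a lower and 3 a higher mean, and 7 of 12 bodies a lower and 5 a higher one. None of their 12 tested gene features and 17 tested CpG island features was called, where 1 and 4 had an unadjusted p under 0.05. Epcam, an epithelial adhesion gene, differed in direction within the locus, with its island at 11.7% ± 0.0149 in the controls and 4.66% ± 0.707 with netrin-1 and its body at 14.3% ± 0.606 and 17.9% ± 0.591 (SD, n = 2). The limma-moderated adjusted p were 0.220 and 0.443. Shelves of Krt18 (15.3% ± 6.94 against 6.76% ± 3.88), on chromosome 15, and Cldn4 (46.9% ± 0.618 against 55.3% ± 2.27) also stood out. These 2 shelves and the Epcam features had the greatest differences among tested features with groups apart.

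Of 14 naive pluripotency genes 12 had measured promoters, of which 8 had a lower and 4 a higher mean. Of 12 measured bodies 11 had a lower mean, against 69.8% of all bodies. The median promoter difference was -0.131 points, against -0.134 points over all measured promoters. Over the 8 measured naive promoters with a CpG island it was -0.185 points. The corresponding medians were -0.0683 points over all promoters with a CpG island and 0.479 points over the formative and primed regulators, whose measured promoters all have one. Whether the lists differ was not tested. None of their 10 tested gene features and 11 tested CpG island features was called by the limma-moderated test, where 2 and 0 had an unadjusted p under 0.05. A shelf of Sox2 (23.7% ± 13.0 against 13.3% ± 1.17), the promoter of Dppa3 (27.8% ± 3.31 against 20.2% ± 3.77) and, in the other direction, a shore of Sox2 (4.04% ± 0.647 against 6.30% ± 0.817, SD, n = 2) had the greatest differences among tested features with groups apart.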

How the data were processed

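The authors deposited tables of 100 kb windows, of CpG islands with shores and shelves, and of genes. Per the file headers, each gives for every library the count of covered positions, of total calls and of methylated calls, and the level as a fraction. Each deposited fraction is methylated calls divided by total calls, to 5.55e-16, and percentages were computed anew. Builds mm10 and GRCm38 and FastQC are named in the submitters' processing notes. The names of the aligner and caller and any filters were not given in the sources used here. Calls come from amplified reads, so intervals (95% Wilson) and limits (3 calls over the total) cover counting error only.

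Groups and replicate numbers came from titles. A quasi-binomial logistic model was fitted to the calls of every tested feature of each table. Its dispersion was moderated with limma 3.58.1 (robust, with a trend on log mean coverage and no value under 1) in R 4.3.3. The procedure was also run on simulated data with a fixed spread and a large fixed shift. That run cannot show its power or error rate at the differences and spread seen here. Features needed 10 calls per library, levels that were not all equal, and an average of 25 per library for calls × level × (1 - level). That minimum comes from an earlier look at these data, when it was chosen after counts had been seen. The members and lists were also chosen with earlier results of these data known. An exact permutation test of 2 against 2 libraries cannot give p under 0.333 and was not used. Named are all members and, of other lists, the 2 tested features with the greatest non-overlapping difference in each direction. Tables were summarised with Python 3.11.15, pandas 2.3.3, numpy 2.4.6 and scipy 1.17.1, and figures drawn with matplotlib 3.10.9. Control replicates differed beyond sampling noise at 41.6% of gene features and netrin-1 replicates at 43.6% (chi-square p under 0.05). Alternatives changed the minimums, the robust step, the model, centring, the replicate block and the libraries used. Re-sorted copies of the tables were not used.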

Additional observations from a re-analysis of the deposited data

How the results depend on the processing

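The count of called gene features of the regulators stayed at 0 under each alternative that kept all 4 libraries. The count of called CpG island features was 3 with no information minimum, against 0.964% of all CpG island features then tested. These 3 were the upstream shelves of Otx2, which share calls, and the 3′ shelf of Zic2. It was 0 under the other alternatives that kept all 4 libraries. The cause of this change was not tested. Pooling calls over features gave a promoter difference of 0.412 points against 0.773 and a body difference of -3.43 points against -2.17, since features with many calls then weigh more. Without 1 library the differences ran from 0.676 to 0.870 points for promoters, -2.51 to -1.83 for bodies, -0.482 to -0.166 for islands, -2.34 to 0.163 for shores and -4.79 to -2.28 for shelves. The shore difference thus changed sign without netrin-1 replicate 2. Of 261 comparisons of single tested features with an alternative, 249 kept direction and side of the threshold, 5 gained a call and 7 changed direction. The gains with no information minimum were at the 3 shelves named above. The others were at the Zic2 body without netrin-1 replicate 1 and at the Otx2 shelf at 48668725 without control replicate 2. In those fits 1 group held a single library, so its spread was not measured. With libraries centred the Zic5 body had an adjusted p of 0.976. Without 1 library the ranges of the limma-moderated adjusted p were 0.949 to 0.984 for the Pou3f1 body, 0.891 to 0.987 for the Zic5 body, 0.55 to 0.989 for the Sall2 body, 0.655 to 0.976 for the Pou3f1 island and 0.787 to 0.998 for the Lef1 island. The replicate numbers are not known to pair the libraries: deviations of libraries with the same number correlated at 0.0317 across gene features and -0.000352 across CpG island features. With the replicate block 0 gene features and 0 CpG island features of the regulators were called, and the number called over all genes went from 1 to 299 in the gene table and from 22 to 14 in the CpG island table. Over all genes the number called ran from 0 (limma on percentage points) to 445 (without netrin-1 replicate 1) of the gene features and from 0 (limma on percentage points) to 412 (no information minimum) of the CpG island features. The promoters held at most 39 methylated calls per library and did not reach the minimum on informative calls.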
